A study of Mus musculus with 12 samples.

Results

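Synaptic vesicle endocytosis genes were examined in RNA sequencing of mouse cortex. The 10 genes were chosen by name, from the proteins of the clathrin pathway that recovers vesicle membrane at nerve terminals: Cltc, Clta, Cltb, Ap2a1, Ap2b1, Snap91, Amph, Sh3gl2, Dnm1 and Synj1. The rule uses their names and no level or fold change, though earlier results of these data were known when they were chosen. All 10 were found by symbol among the 29879 genes of the count files, and all 10 were among the 13404 genes that passed the filter on low counts.

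The 12 libraries, in 4 groups of 3, all came from mice of the SNAP25 BacTRAP line, whose cortex was taken at postnatal day 21. In such a line, a ribosomal protein tagged with green fluorescent protein (GFP) is made in the cells that use the chosen gene, here the neuronal gene Snap25, so that their ribosomes can be immunoprecipitated with the mRNA bound to them (translating ribosome affinity purification, TRAP). WCH is RNA of the cortex homogenate without immunoprecipitation, TRAP is the immunoprecipitate of tagged ribosomes from cortex, SNF is the synaptic (SN) band of a sucrose and Percoll gradient without immunoprecipitation, while for SynapTRAP the tagged ribosomes of the band were immunoprecipitated. The labels do not give the number or sex of the animals, or whether tissue was pooled, and p-values here speak only for the spread of these libraries, which may be technical.

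After a vesicle fuses at the terminal, its membrane and proteins are collected from the surface and made into new vesicles. The adaptor complex AP-2 and the clathrin assembly protein AP180 bind the membrane and recruit clathrin, whose triskelia of heavy and light chains form the coat. The curved-membrane proteins amphiphysin and endophilin gather at the neck of the bud, the GTPase dynamin cuts it, and the lipid phosphatase synaptojanin helps to remove the coat. The mRNAs of these proteins are made in the cell body, and the 4 preparations allow their share in whole tissue, on neuronal ribosomes, in the synaptic band and on neuronal ribosomes of that band to be compared.

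All 10 are protein-coding genes, placed here by GENCODE M21 on GRCm38. The coat genes are the heavy chain gene Cltc (ENSMUSG00000047126, chr11:86694351-86757565, minus strand), the light chain a gene Clta (ENSMUSG00000028478, chr4:44004452-44032846, plus strand) and the light chain b gene Cltb (ENSMUSG00000047547, chr13:54592401-54611344, minus strand). The adaptor genes are Ap2a1 for an AP-2 alpha subunit (ENSMUSG00000060279, chr7:44900373-44929496, minus strand), Ap2b1 for its beta subunit (ENSMUSG00000035152, chr11:83299024-83405035, plus strand) and Snap91 for AP180 (ENSMUSG00000033419, chr9:86765923-86880654, minus strand). Amph for amphiphysin (ENSMUSG00000021314) lies at chr13:18948205-19150921 on the plus strand, and Sh3gl2 for endophilin A1 (ENSMUSG00000028488) at chr4:85205126-85639195 on the plus strand. Dnm1 for dynamin 1 (ENSMUSG00000026825) lies at chr2:32308471-32353338 on the minus strand, and Synj1 for synaptojanin 1 (ENSMUSG00000022973) at chr16:90936092-91011308 on the minus strand. Annotated exons of Ap2a1 overlap those of Fuz on the opposite strand over 720 bases, and those of Synj1 overlap a noncoding transcript over 60 bases. Whether the counting used strand is not stated in the labels, so reads in these stretches cannot be assigned with certainty, and Ap2a1 is the most exposed.

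Gene counts per library were 4368881 to 14335089, and the 10 genes together had 19938 to 25537 counts for WCH, 24106 to 34967 for TRAP, 3816 to 4520 for SNF and 8758 to 23121 for SynapTRAP. Their lowest single count was 50, for Ap2a1 in SNF replicate 3. Mitochondrially encoded RNA took 33.6% to 50.9% of the WCH counts, 0.930% to 5.43% of the TRAP counts, 82.2% to 87.3% of the SNF counts and 20.4% to 63.3% of the SynapTRAP counts. Levels are therefore CPM, the counts of each library brought to a common depth, after trimmed mean of M-values (TMM) scaling, which sets most genes level between libraries. Scaling by total counts moved the median log2 fold change of all genes from −0.25 to −2.60 for SNF against WCH and from 0.03 to 1.98 for SynapTRAP against SNF, so every change below is relative to the other genes and not to the total RNA. GFP, which checks the pull-down, had 4.66 to 7.26 CPM in WCH and 21.5 to 55.1 in TRAP, and 2.88 to 3.72 in SNF and 7.52 to 10.1 in SynapTRAP. The SNF values rest on 10 to 14 counts per library. SynapTRAP replicate 3 stood apart with the highest mitochondrial share of its group. TRAP replicate 3 had the highest summed oligodendrocyte markers of its group, 7079 CPM, but 5943 of these were Mbp. Mag, Mog, Cnp, Cldn11, Tspan2 and Ugt8a were higher in TRAP replicate 1. TRAP replicate 2 also stood apart, with the lowest gene counts (4368881) and mitochondrial share (0.930%) of its group. It had the lowest summed neuron markers of the group, 9904 CPM, and the highest endothelial ones, 47.3 CPM. Results that rest on SynapTRAP replicate 3 or on TRAP replicate 2 or 3 are given without them.

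The marker lists moved with the preparations. The summed level of 12 neuron markers ranged over 9782 to 10655 CPM for WCH, 9904 to 14353 for TRAP, 9360 to 10738 for SNF and 7149 to 10205 for SynapTRAP. That of 10 astrocyte markers was 2408 to 3009, 706 to 1504, 14589 to 19826 and 9689 to 16717 CPM in the same order, and that of 10 oligodendrocyte markers was 2659 to 3392, 517 to 7079, 7324 to 9508 and 8774 to 21705. Microglia markers summed to 71.2 to 83.6, 18.4 to 47.7, 256 to 536 and 158 to 337 CPM, and endothelial markers to 11.9 to 13.5, 8.65 to 47.3, 29.1 to 35.4 and 24.0 to 44.1. No neuron, astrocyte, oligodendrocyte or microglia marker was at 0 in any library, and 3 endothelial markers were at 0 in at least 1. Astrocyte and microglia markers were thus higher in every SNF and SynapTRAP library than in any WCH or TRAP library, astrocyte markers by far. For oligodendrocyte markers the order was the same, but the highest TRAP library, at 7079 CPM, was close to the lowest SNF library, at 7324. Fewer cells of a type and less RNA per cell cannot be told apart in such samples, and the part of glial RNA in the results below was not tested.

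**Figure D1:**
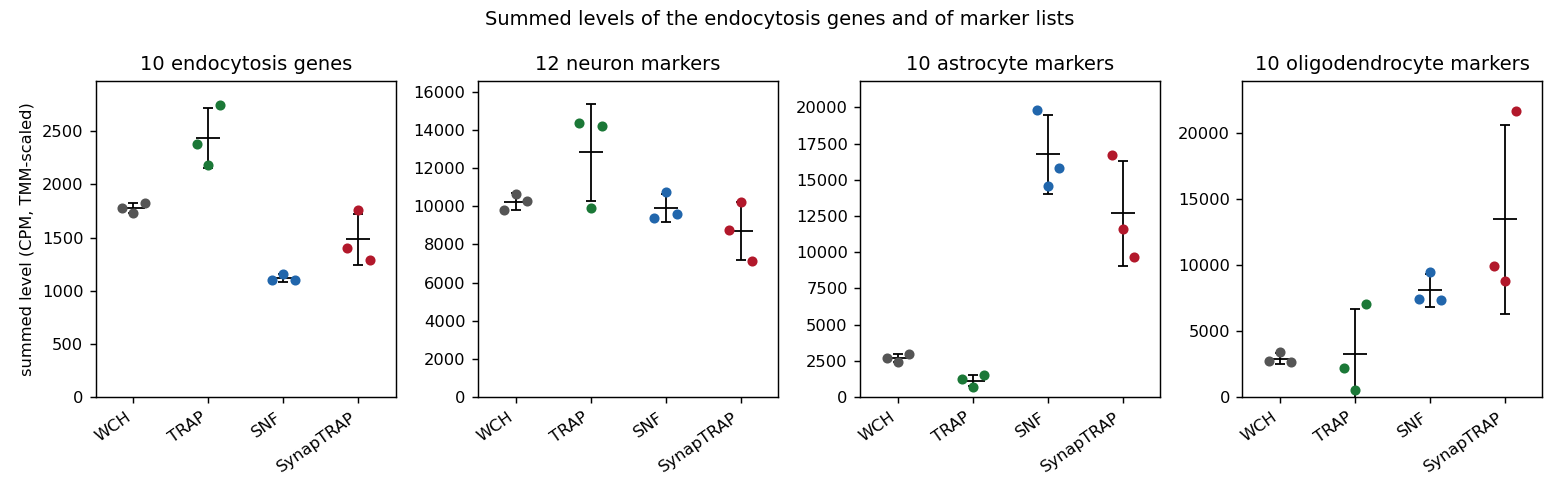
Summed level in CPM (vertical axes from 0) of the 10 endocytosis genes and of 3 marker lists in each library of the 4 groups; points are libraries, and lines with bars are the mean ± SD of 3. The endocytosis genes summed to 1098 to 1159 CPM in SNF, below every other library, while astrocyte markers were at 9689 CPM or more in every SNF and SynapTRAP library.

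In whole cortex, the dynamin 1 gene ranked first of the 10 by level per annotated exon base and the AP-2 alpha subunit gene Ap2a1 last. Per kilobase of annotated exon, Dnm1 had 54.3 ± 3.04 CPM in WCH (SD, n = 3), Synj1 42.7 ± 1.21, Sh3gl2 40.9 ± 1.03, Cltc 36.9 ± 3.84 and Clta 33.1 ± 4.12. Snap91 followed with 25.1 ± 3.13, Amph with 20.2 ± 1.08, Ap2b1 with 13.4 ± 0.279, Cltb with 9.31 ± 0.189 and Ap2a1 with 5.30 ± 0.517. The libraries of Sh3gl2 and Cltc overlapped, as did those of Cltc and Clta, and the other neighbours in this order did not. Dnm1 stayed first in all 4 groups, at 118 ± 33.0 CPM per kilobase in TRAP, 34.5 ± 2.51 in SNF and 55.8 ± 12.5 in SynapTRAP. Sh3gl2, the third in WCH, was the eighth in SynapTRAP at 14.8 ± 3.21, where its libraries overlapped those of Ap2b1 before it and Ap2a1 after it. These values divide by all annotated exon bases of a gene, so a gene with little-used exons can be placed too low. Sh3gl2 has 6551 such bases, but its longest coding sequence has 1293, with 542 untranslated bases after it. For Cltb these are 4868, 687 and 289, and for Dnm1 5249, 2601 and 662. With transcript lengths the order could therefore differ, and the first place of Dnm1 is not settled.

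**Figure D2:**
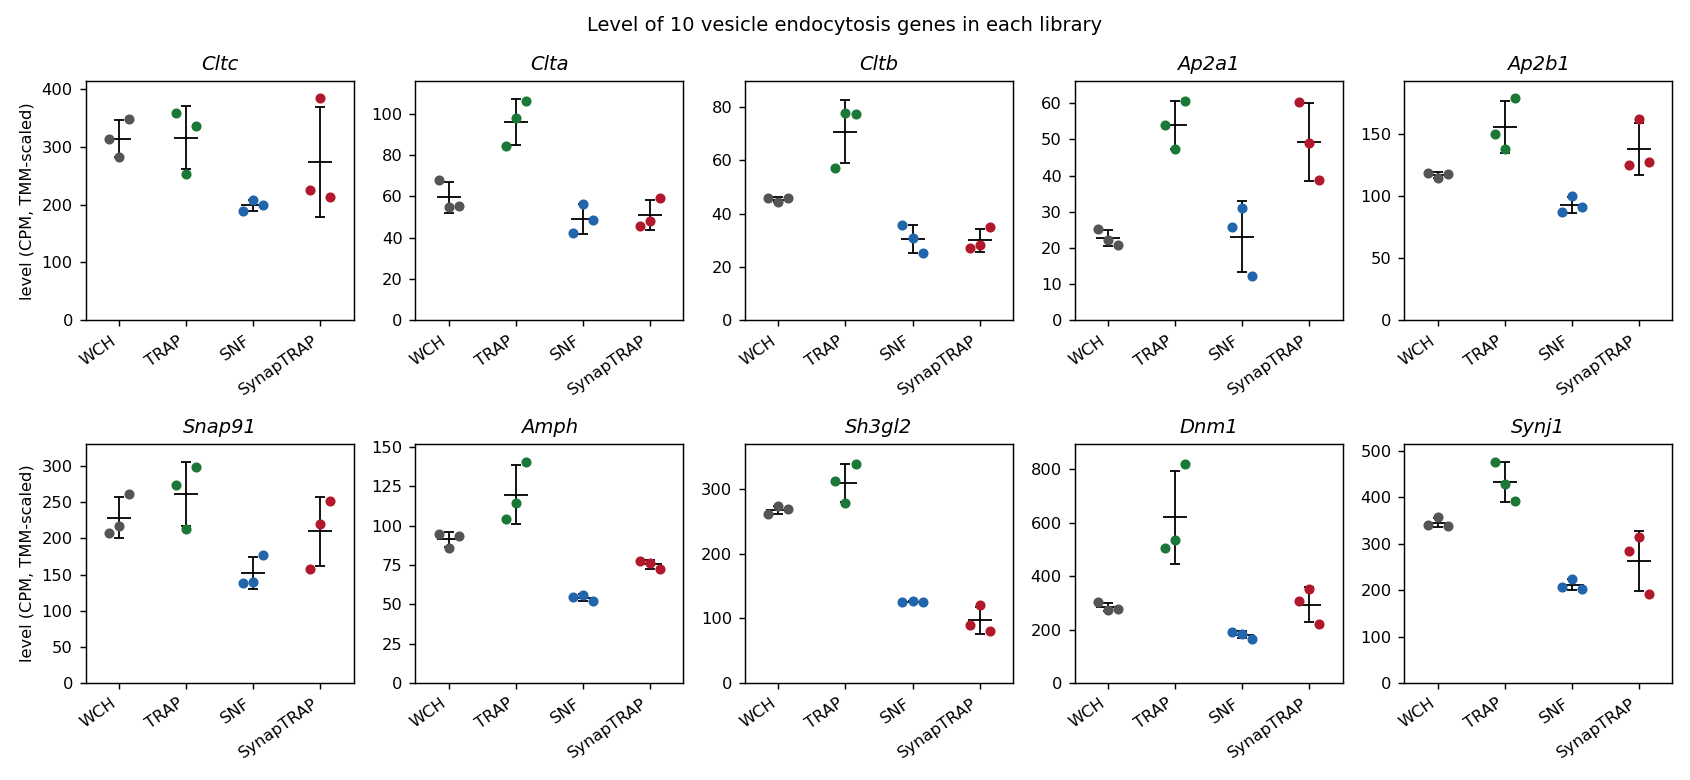
Level of each of the 10 genes in CPM (vertical axes from 0, one scale per gene) in the 12 libraries; points are libraries, and lines with bars are the mean ± SD of 3. Sh3gl2 was at 261 to 274 CPM in WCH and 279 to 338 in TRAP, against 125 to 127 in SNF and 80.7 to 121 in SynapTRAP.

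Setting TRAP against WCH asks which of these mRNAs were richer on tagged neuronal ribosomes than in the whole tissue. The genes of dynamin 1, the AP-2 alpha subunit and both clathrin light chains rose, by 1.56-fold to 2.36-fold, and none of the 10 fell. In all, 4 of 10 were called higher, where 11.1% of all tested genes were higher and 10.9% lower (edgeR's quasi-likelihood test, Benjamini-Hochberg adjusted p under 0.05). At an unadjusted p under 0.05, 0 of 10 were lower, and DESeq2 also called 0 lower. The median log2 fold change was 0.40, against −0.01 for all genes. The groups were apart, with all TRAP libraries higher, in 8 of 10 genes, as in 20.6% of all genes. Astrocyte, oligodendrocyte and microglia markers were called lower in 5 of 10, 6 of 10 and 4 of 10, and none was called higher. Of the 12 neuron markers, 6 were called higher and 0 lower, with a median log2 fold change of 0.67. Whether the 10 genes differed from the neuron markers was not tested.

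Dnm1 had 303, 274 and 279 CPM in the WCH libraries 1 to 3 and 506, 534 and 819 in the TRAP libraries. Its groups did not overlap, and TRAP replicate 3 was the highest (1.12 on the log2 scale, SE 0.24, edgeR adjusted p = 0.00274). Leaving that library out gave 0.90. Ap2a1 had 25.2, 22.2 and 20.9 CPM in WCH and 54.0, 47.3 and 60.5 in TRAP, again with no overlap (1.24, SE 0.26, edgeR adjusted p = 0.00248). These 2 genes kept their call under every alternative that was run, total-count scaling included.

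The light chains bind the clathrin heavy chain and regulate coat assembly. Clta stood at 68.1, 54.9 and 55.6 CPM in the WCH libraries against 84.2, 97.8 and 106 for TRAP (0.69 on the log2 scale, SE 0.21, edgeR adjusted p = 0.0214). Cltb had 45.8, 44.3 and 45.9 CPM in WCH and 57.2, 78.0 and 77.3 in TRAP (0.64, SE 0.21, edgeR adjusted p = 0.0331). Every TRAP library was above every WCH library for both. The calls were near the threshold: leaving out WCH replicate 2 (0.63), WCH replicate 3 (0.65) or TRAP replicate 3 (0.64) ended that of Clta. For Cltb the same held for each WCH replicate (0.69, 0.63 and 0.66 for 1, 2 and 3), for TRAP replicates 2 (0.60) and 3 (0.61) and without the expression filter (0.65). The heavy chain gene Cltc did not share this difference, with 312, 282 and 347 CPM in WCH and 358, 253 and 335 in TRAP (0.01, SE 0.24, edgeR adjusted p = 0.985). Its groups overlapped fully. The log2 ratio of Cltc to Clta, which no scaling changes apart from an offset of 0.5 CPM, was 2.39 ± 0.22 in WCH and 1.70 ± 0.36 in TRAP (SD, n = 3).

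The other 5 genes were not called. Ap2b1 (log2 fold change 0.41, SE 0.20), Amph (0.39, SE 0.20), Synj1 (0.32, SE 0.22) and Sh3gl2 (0.21, SE 0.21) each had every TRAP library above every WCH library, and Snap91 (0.20, SE 0.23) overlapped. With total counts as scaling, Ap2b1 (0.97) and Amph (0.95) also passed the test.

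SNF was compared with WCH to ask whether the band is richer in these mRNAs than whole tissue. None of the 10 was higher, and 7 were called lower by 1.48-fold to 2.12-fold, led by endophilin A1 (Sh3gl2) and amphiphysin (Amph). Of all tested genes, 16.5% were called lower and 20.6% higher. At an unadjusted p under 0.05, 0 of 10 were higher, and DESeq2 called 0 higher. The median log2 fold change of the 10 was −0.62, against −0.25 for all genes. All SNF libraries lay below all WCH libraries in 8 of 10 genes, as in 33.6% of all genes. The count of lower genes depends on the scaling, since RLE factors (relative log expression, DESeq2's scaling) gave 2 of 10 and DESeq2 gave 3 of 10. For all genes, RLE factors gave 2966 higher and 1415 lower, where TMM gave 2757 and 2209. Astrocyte, oligodendrocyte and microglia markers moved the other way, with 10 of 10, 7 of 10 and 10 of 10 called higher.

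Sh3gl2 had 261, 274 and 268 CPM in WCH and 126, 127 and 125 in SNF. The libraries of each group were close together and far from the other group (−1.09 on the log2 scale, SE 0.22, edgeR adjusted p = 0.000465), and the call held under all 13 alternatives, at −0.95 or lower in each. Amph had 94.8, 85.7 and 93.3 CPM in WCH and 54.7, 56.1 and 52.1 in SNF (−0.75, SE 0.20, edgeR adjusted p = 0.00606), and lost its call only without WCH replicate 1 (−0.62) among the 13 alternatives. Synj1 had 341, 357 and 338 CPM in WCH and 207, 225 and 202 in SNF (−0.71, SE 0.23, edgeR adjusted p = 0.0172). Its groups did not overlap, but RLE factors (−0.58) ended the call, as did leaving out WCH replicate 1 (−0.61), WCH replicate 2 (−0.69), SNF replicate 1 (−0.70) or SNF replicate 3 (−0.68).

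Cltc, Dnm1, Snap91 and Cltb were called only narrowly. Cltc had 189 to 208 CPM in SNF and 282 to 347 in WCH (log2 fold change −0.66, edgeR adjusted p = 0.0383). Dnm1 had 166 to 191 and 274 to 303 (−0.66, edgeR adjusted p = 0.0366). Both lost the call without any 1 of the 6 libraries, at −0.73 to −0.55 for Cltc and −0.70 to −0.50 for Dnm1. Snap91 had 139 to 177 CPM in SNF and 208 to 261 in WCH (−0.59, edgeR adjusted p = 0.0483), and among the 6 omissions of a library kept its call only without SNF replicate 3 (−0.72). It was −0.55, −0.63 and −0.49 without WCH replicates 1, 2 and 3 and −0.54 without SNF replicate 1 or 2. Cltb had 25.3 to 35.7 CPM in SNF and 44.3 to 45.9 in WCH (−0.57, edgeR adjusted p = 0.046), and among the same omissions kept its call only without SNF replicate 1 (−0.70, edgeR adjusted p = 0.05 after rounding). It was −0.46, −0.59 and −0.56 without WCH replicates 1, 2 and 3, and −0.58 and −0.45 without SNF replicates 2 and 3. In these 4 genes no SNF library reached the level of a WCH library.

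The remaining 3 genes were not called. Ap2b1 had 87.2 to 100.3 CPM in SNF against 114 to 119 in WCH, with no overlap (log2 fold change −0.34, SE 0.21). Clta overlapped at 42.3 to 56.4 against 54.9 to 68.1 CPM (−0.28, SE 0.21). Ap2a1 had 25.9, 31.1 and 12.2 CPM in SNF, a range that spans the WCH libraries (0.01, SE 0.27; with total counts as scaling −2.36).

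The 12 neuron markers had a median log2 fold change of −0.38 in this comparison, also below the −0.25 of all genes. Of them 3 were called higher in SNF, all for vesicle membrane proteins and singled out here after their values were seen: Syp for synaptophysin (log2 fold change 2.26, edgeR adjusted p = 6.9e-06), Syt1 for the calcium sensor synaptotagmin 1 (1.68, edgeR adjusted p = 0.000226) and Slc17a7 for a vesicular glutamate transporter (2.82-fold, edgeR adjusted p = 0.000449). The fusion protein gene Snap25 (−0.96) and the neuronal enolase gene Eno2 (−0.76) were lower, and the other 7 neuron markers, from −0.53 (Gad1) to −0.09 (Map2), were not called. A ratio of counts within a library needs no scaling. Per 100 counts of the neuron markers, the 10 endocytosis genes had 16.2 to 18.2 counts for WCH, 16.6 to 22.0 for TRAP, 10.8 to 11.7 for SNF and 16.0 to 18.1 for SynapTRAP. Snap25 makes up most of the marker counts in WCH, and without it the values were 55.8 to 60.3, 55.2 to 64.4, 16.4 to 19.4 and 23.9 to 27.3. On either measure every SNF library was below every WCH and TRAP library. SynapTRAP was within or near the WCH range with Snap25 and far below it without. Without Snap25, much of the marker counts in SNF comes from Syt1, Syp and Slc17a7, the markers that rose there. Syt1 had 759 to 902 CPM in WCH, 2291 to 2882 in SNF and 905 to 2457 in SynapTRAP. Syp had 310 to 352, 1355 to 1972 and 886 to 1679 in the same order. The lower values without Snap25 thus reflect these markers as well as the endocytosis genes.

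**Figure D3:**
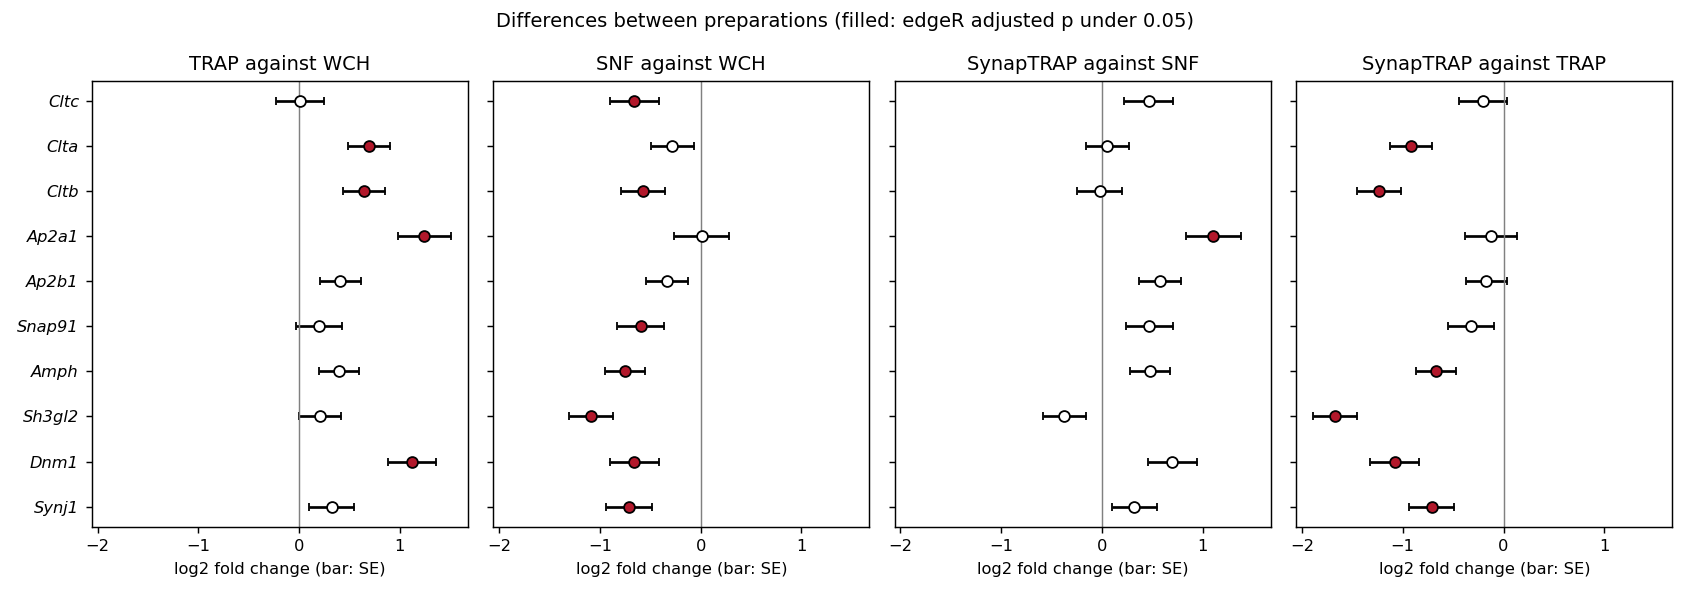
Log2 fold change (horizontal axis, bars ± SE) of the 10 genes in 4 comparisons; filled points have an edgeR adjusted p under 0.05. Points lie at or right of 0 for TRAP against WCH (4 filled), and left of 0 in 9 of 10 genes for SNF against WCH (7 filled) and in all 10 for SynapTRAP against TRAP (6 filled).

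Setting SynapTRAP against SNF asks which mRNAs of the band were on tagged neuronal ribosomes. The AP-2 alpha subunit gene Ap2a1 rose 2.15-fold and was the only 1 of 10 called, where 2.29% of all tested genes were called higher and 1.79% lower. None was called lower (0 at an unadjusted p under 0.05, 0 in DESeq2), and 4 of 10 were higher at an unadjusted p under 0.05. The median log2 fold change was 0.46, against 0.03 for all genes. In 5 of 10 genes every SynapTRAP library lay above every SNF library, as in 12.4% of all genes. Astrocyte, oligodendrocyte and microglia markers were called lower in 0 of 10, 2 of 10 and 1 of 10, and none was called higher. Most glial markers were thus not called lower by the pull-down from the band. The 12 neuron markers had 1 called higher and 0 lower, with a median log2 fold change of 0.22. Over all genes TMM gave 307 higher and 240 lower, RLE factors gave 185 and 366, and the replicate block, with which same-numbered libraries of these groups deviated together, gave 441 and 393.

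Ap2a1 had 25.9, 31.1 and 12.2 CPM in the SNF libraries 1 to 3 and 60.2, 48.9 and 38.8 in the SynapTRAP libraries. The lowest in each group was replicate 3, and the groups did not overlap (1.10 on the log2 scale, SE 0.27, edgeR adjusted p = 0.0258). The call was lost without SNF replicate 1 (1.20) or 3 (0.80) or SynapTRAP replicate 1 (0.84), with RLE factors (0.98) and when only these groups were fitted (1.04). Dnm1 had 191, 185 and 166 CPM in SNF and 305, 351 and 222 in SynapTRAP. Its groups did not overlap, and it missed the threshold (0.70, SE 0.24, edgeR adjusted p = 0.108) unless SynapTRAP replicate 3 was left out (0.86, edgeR adjusted p = 0.034). Ap2b1 (0.58, SE 0.21), Amph (0.48, SE 0.20) and Cltc (0.46, SE 0.24) also had every SynapTRAP library above every SNF library. Sh3gl2 had every SynapTRAP library below, at 89.8, 121 and 80.7 CPM against 126, 127 and 125 (−0.38, SE 0.21, edgeR adjusted p = 0.344), a sign that turned with total counts as scaling (1.66). The light chains hardly differed from 0 relative to their error, with Clta at 0.05 (SE 0.21) and Cltb at −0.02 (SE 0.22).

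SynapTRAP was compared with TRAP to ask how the mRNAs on neuronal ribosomes of the band differed from those on neuronal ribosomes of the whole cortex. Endophilin A1, both clathrin light chains, dynamin 1, synaptojanin 1 and amphiphysin fell, by 1.59-fold to 3.19-fold. In all, 6 of 10 were called lower, where 18.1% of all tested genes were lower and 21.6% higher, and none was higher (0 at an unadjusted p under 0.05, 0 in DESeq2). The median log2 fold change was −0.69, against −0.02 for all genes. In 6 of 10 genes no SynapTRAP library reached the lowest TRAP library, as in 21.4% of all genes. Over all genes, total counts as scaling gave 594 higher and 6403 lower where TMM gave 2899 and 2432. Astrocyte and microglia markers were called higher in 10 of 10 each and oligodendrocyte markers in 8 of 10, and their part in the lower levels was not tested. Of the 12 neuron markers, 5 were called lower and 3 higher, with a median log2 fold change of −0.54. A difference between them and the 10 genes was not tested.

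Sh3gl2 changed most. It had 312, 279 and 338 CPM in TRAP and 89.8, 121 and 80.7 in SynapTRAP, so that the highest SynapTRAP library was below the lowest TRAP library by a wide margin (−1.67 on the log2 scale, SE 0.22, edgeR adjusted p = 6.31e-06). Cltb had 57.2, 78.0 and 77.3 CPM in TRAP and 27.1, 28.2 and 35.1 in SynapTRAP (−1.24, SE 0.22, edgeR adjusted p = 0.000137). Clta had 84.2, 97.8 and 106 against 45.5, 48.2 and 59.1 (−0.92, SE 0.21, edgeR adjusted p = 0.00161). The light chain genes were thus lower in every SynapTRAP library, as was Dnm1 at 506, 534 and 819 against 305, 351 and 222 CPM (−1.08, SE 0.24, edgeR adjusted p = 0.00132). These 4 calls held under all 13 alternatives.

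Amph had 104, 115 and 140 CPM in TRAP and 77.7, 76.5 and 72.2 in SynapTRAP (−0.67 on the log2 scale, SE 0.20, edgeR adjusted p = 0.0105), and lost its call when only these groups were fitted (−0.61). Synj1 had 476, 429 and 391 against 284, 315 and 192 CPM (−0.71, SE 0.22, edgeR adjusted p = 0.0149), and lost its call in that fit (−0.66) and without SynapTRAP replicate 3 (−0.53). The adaptor genes did not pass the test, with overlapping groups and values of −0.13 for Ap2a1 (SE 0.26), −0.17 for Ap2b1 (SE 0.20) and −0.32 for Snap91 (SE 0.23). Neither did the heavy chain gene Cltc (−0.20, SE 0.24). With total counts as scaling these 4 were also called lower, at −1.30 to −1.02.

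The make-up of the family, as each gene's share of the counts of all 10, gives the same libraries without any scaling. Sh3gl2 took 15.1% ± 0.700 of these counts for WCH (SD, n = 3), 12.7% ± 0.403 for TRAP, 11.3% ± 0.276 for SNF and 6.52% ± 0.331 for SynapTRAP, and no library of 1 group overlapped another. Ap2b1 took 6.60% ± 0.120, 6.39% ± 0.111, 8.29% ± 0.353 and 9.36% ± 0.451, so that every SNF and SynapTRAP library was above every WCH and TRAP library. Ap2a1 took 1.28% ± 0.138, 2.21% ± 0.0550, 2.05% ± 0.833 and 3.37% ± 0.822, with each SynapTRAP library above every other library. Dnm1 rose in share from 16.1% ± 0.928 in WCH to 25.2% ± 4.33 in TRAP without overlap, and was at 16.2% ± 1.17 in SNF and 19.7% ± 2.35 in SynapTRAP. Amph kept nearly the same share in the 4 groups, with means of 4.85% to 5.17%. No test was run on these shares, which are given as a description.

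**Figure D4:**
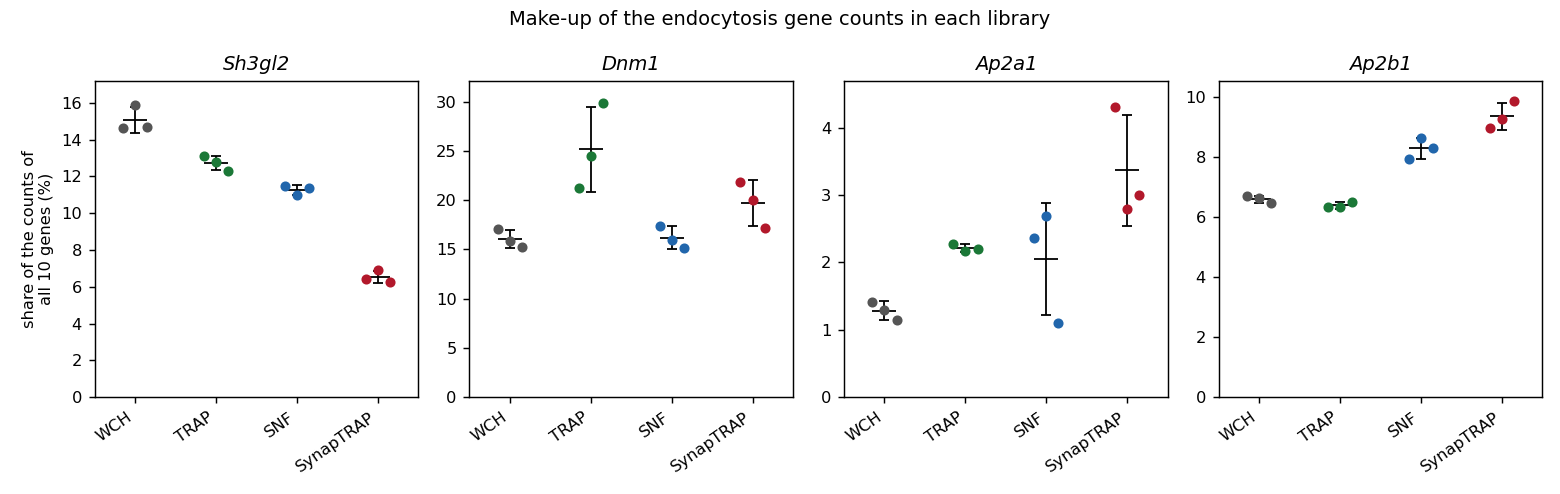
Share of the counts of all 10 endocytosis genes (vertical axes in %, from 0) taken by 4 of them in each library; points are libraries, and lines with bars are the mean ± SD of 3. The share of Sh3gl2 was 14.7% to 15.9% in WCH and 6.25% to 6.89% in SynapTRAP, and that of Ap2b1 was 6.32% to 6.70% in WCH and TRAP and 7.94% to 9.85% in SNF and SynapTRAP.

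The difference between both immunoprecipitation effects was tested directly, as SynapTRAP minus SNF less TRAP minus WCH. No gene of the 10 passed this test (edgeR's quasi-likelihood test, where 0.865% of all tested genes were called in either direction). At an unadjusted p under 0.05 there were 2 lower and 0 higher, and DESeq2 called 0. Those 2 were the light chain genes, Cltb (−0.67, SE 0.31, edgeR adjusted p = 0.261) and Clta (−0.64, SE 0.30, edgeR adjusted p = 0.271). Sh3gl2 followed with −0.59 (SE 0.30, edgeR adjusted p = 0.322), and its interval of 2 SE on each side ran from −1.19 to 0.02. For Synj1 the difference was −0.0048 (SE 0.32) and the same interval ran from −0.64 to 0.63. That these genes missed the threshold does not show that both effects were alike.

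**Figure D5:**
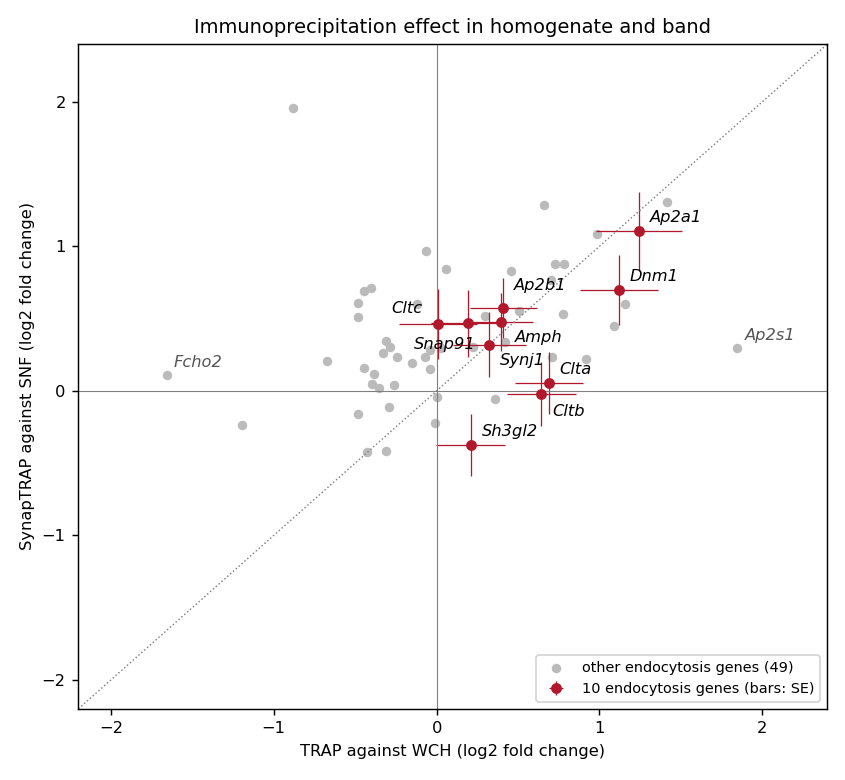
Log2 fold change of TRAP against WCH (horizontal axis) and of SynapTRAP against SNF (vertical axis) for the 10 genes (red, bars ± SE) and 49 other endocytosis genes (grey); the dotted line marks equal values. Ap2a1 lies at 1.24 and 1.10, near that line, while Clta (0.69 and 0.05), Cltb (0.64 and −0.02) and Sh3gl2 (0.21 and −0.38) lie below it.

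Each of several genes has a close relative with another pattern of use, and those were read from the same fit. Dnm1 is the main neuronal dynamin, Dnm2 is used in most cells and Dnm3 is also found in brain. Dnm2 had 16.0 to 19.8 CPM in WCH and 9.5 to 21.2 in TRAP and was not called there (log2 fold change −0.29, SE 0.27). Dnm3 was not called either (−0.39, SE 0.24). The log2 ratio of Dnm1 to Dnm2 was 3.96 ± 0.10 for WCH, 5.39 ± 0.30 for TRAP, 3.19 ± 0.10 for SNF and 3.59 ± 0.22 for SynapTRAP (SD, n = 3), and the TRAP libraries were above all others. Dnm2 was higher in SynapTRAP than in TRAP (0.71, SE 0.27, edgeR adjusted p = 0.0391), with overlapping groups. That call ended when TRAP replicate 1 (0.61) or 2 (0.44) or SynapTRAP replicate 1 (0.51) or 2 (0.69) was left out, with only these groups fitted (0.77) and with TMM from genes outside the mitochondrial genome (0.68). Dnm3 fell in SNF against WCH like Dnm1 (−0.80, SE 0.24, edgeR adjusted p = 0.0136), but not when WCH replicate 1 (−0.67) or SNF replicate 3 (−0.69) was left out.

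The second alpha subunit gene of AP-2, Ap2a2, rose in TRAP against WCH like Ap2a1 (1.09 on the log2 scale, SE 0.21, edgeR adjusted p = 0.00128). Unlike Ap2a1, it was called lower in SynapTRAP against TRAP (−0.61, SE 0.21, edgeR adjusted p = 0.0243), though not without TRAP replicate 3 (−0.49), without the expression filter (−0.62) or with only these groups fitted (−0.55). The difference between these 2 genes was not tested, and the log2 ratio of Ap2a1 to Ap2a2 was −1.66 ± 0.12 in TRAP and −1.21 ± 0.25 in SynapTRAP (SD, n = 3), without overlap. Bin1, the relative of Amph found in many tissues, was lower in SNF than in WCH (−0.83, SE 0.22, edgeR adjusted p = 0.00551), though not when WCH replicate 1 was left out (−0.68). The log2 ratio of Amph to Bin1 was 0.63 ± 0.12 in WCH and 1.34 ± 0.19 in TRAP. Picalm, the widely used relative of Snap91, passed the test in none of the 5 contrasts under the main scaling, and the log2 ratio of Snap91 to Picalm was 1.42 ± 0.14 for WCH, 1.96 ± 0.07 for TRAP, 1.22 ± 0.21 for SNF and 1.66 ± 0.19 for SynapTRAP. Every TRAP library was above every WCH library in the ratios to Dnm2, Dnm3, Bin1 and Picalm. The groups overlapped in the ratios of Ap2a1 to Ap2a2, Ap2b1 to Ap1b1, Sh3gl2 to Sh3gl1 and to Sh3gl3, and Synj1 to Synj2. Ap1b1, for the beta subunit of the related adaptor AP-1, rose in TRAP against WCH (0.67, SE 0.21, edgeR adjusted p = 0.025), a call that ended when WCH replicate 2 (0.62), WCH replicate 3 (0.66) or TRAP replicate 1 (0.56) was left out. The log2 ratio of Ap2b1 to Ap1b1 was 1.75 ± 0.06 in WCH and 1.51 ± 0.26 in TRAP. Synj2, the relative of Synj1, was lower in SNF than in WCH (−0.64, SE 0.22, edgeR adjusted p = 0.0243). Among the omissions that call held only without SNF replicate 3, with −0.65 to −0.52 in the other 5, and it was lost with RLE factors and in DESeq2 (−0.51 in each). Synj2 was also lower in SynapTRAP than in TRAP (−0.55, SE 0.21, edgeR adjusted p = 0.0386), and not called when TRAP replicate 2 (−0.44) or SynapTRAP replicate 1 (−0.57), 2 (−0.59) or 3 (−0.53) was left out, without the expression filter (−0.57) or with only these groups fitted (−0.50). The endophilin genes Sh3gl1 and Sh3gl3 were called in none of the 5 contrasts in the fit used throughout. They had 7.18 to 21.5 CPM, SynapTRAP replicate 3 aside for Sh3gl3, and the log2 ratio of Sh3gl2 to Sh3gl1 fell from 4.35 ± 0.08 in TRAP to 3.07 ± 0.66 in SynapTRAP without overlap. SynapTRAP replicate 3 had 53.2 CPM of Sh3gl3.

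Further genes of the pathway were read from a list of 49, made of the other AP-2 subunits, adaptors, membrane-bending proteins, uncoating and phosphoinositide enzymes, and the phosphatase and kinases that act on endocytic proteins. All 49 were tested. In TRAP against WCH, 11 of 49 rose and 2 fell, where 11.1% of all genes were called higher and 10.9% lower. All 3 of the other AP-2 subunit genes rose, with Ap2s1 for the sigma subunit at 1.85 (edgeR adjusted p = 7.56e-05) beside Ap2a2 at 1.09 and Ap2m1 for the mu subunit at 0.71. Fcho1, for a protein that starts clathrin pits (log2 fold change 1.41), and Hspa8 for the uncoating chaperone Hsc70 (1.15) also rose, the latter with overlapping groups and not when WCH replicate 2 (0.99) or TRAP replicate 3 (0.77) was left out. Fcho2, the relative of Fcho1 (−1.66), and Sh3glb1 for endophilin B1 (−1.20, not called with total counts as scaling at −0.61) fell.

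In SNF against WCH, 1 of these 49 rose and 14 fell, where 20.6% of all genes were called higher and 16.5% lower. Ston2, for the synaptotagmin adaptor stonin 2, rose (log2 fold change 1.99, edgeR adjusted p = 0.000197; −0.46 with total counts as scaling). The kinase genes Pip5k1a (−1.55) and Pip5k1b (−1.07), whose products make the lipid that AP-2 binds, the AP-2 partner gene Necap1 (−1.15) and the calcineurin subunit gene Ppp3r1 (−1.11) fell. The call of Pip5k1b ended when WCH replicate 1 (−0.99) or 3 (−1.05) or SNF replicate 2 (−1.03) or 3 (−0.93) was left out. The list median was −0.38, against −0.25 for all genes.

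In SynapTRAP against SNF, 5 of 49 rose, where 2.29% of all genes were called higher. The largest were Fcho1 (1.31, edgeR adjusted p = 0.011), Hip1r (1.29, edgeR adjusted p = 0.00887), which links clathrin coats to actin, the ubiquitin-binding adaptor gene Epn1 (1.09, edgeR adjusted p = 0.0153) and the syndapin gene Pacsin1 (0.88, edgeR adjusted p = 0.0364). Fcho1, Hip1r and Epn1 lost the call without SNF replicate 2 (1.39, 1.18 and 1.09), SNF replicate 3 (1.19, 1.23 and 0.96) or SynapTRAP replicate 1 (1.27, 1.17 and 0.96). Pacsin1 lost it without any 1 library except SynapTRAP replicate 3, at 0.68 to 0.98, and with RLE factors (0.76), TMM from genes outside the mitochondrial genome (0.86) or only these groups fitted (0.82). In SynapTRAP against TRAP, 11 of 49 rose and 12 fell, where 21.6% of all genes were called higher and 18.1% lower. Ston2 (6.55-fold), Sh3glb1 (2.83-fold), Fcho2 (2.63-fold) and the clathrin-binding gene Hip1 (2.61-fold) rose most, and Ap2s1 (−1.90), Pip5k1a (−1.33), Necap1 (−1.20) and the kinase gene Cdk5 (−1.13) fell most. With total counts as scaling Sh3glb1 (0.43), Fcho2 (0.42) and Hip1 (0.35) were not called. All 3 of the other AP-2 subunit genes fell in this comparison, Ap2m1 by 1.10 and Ap2a2 by 0.61 on the log2 scale.

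The authors deposited 3 tables of selected genes, and the 10 genes appear once in them. Amph is among the 275 somatic translation candidates, with log2 fold changes in the authors' deposited table of 0.44 by TRAP (false discovery rate 0.0748) and −0.60 by column (false discovery rate 0.0277). None of the 10 is among the 109 local translation candidates or the 3508 genes of the authors' deposited table of enrichment in the band. Of the 49 further genes, Epn1 is among the local candidates and Sh3glb2, for endophilin B2, among the somatic ones in the authors' deposited tables. In the authors' deposited table of enrichment in the band, 4 of the 49 appear. Their log2 fold changes are 2.29 for Ston2 (false discovery rate 1.27e-07), 0.78 for Epn1 (0.0105), 0.49 for Inpp5f (0.0974) and 0.47 for Sh3glb1 (0.0931).

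By group means over the 4 preparations, the genes with the closest pattern among all tested genes were found for each of the 10, as the smallest root mean square difference of centred log2 CPM. The nearest gene of Sh3gl2 was Dut at 0.0090, that of Ap2b1 was Dusp9 at 0.0082 and that of Synj1 was Hdac11 at 0.0105. For Snap91 it was Setdb1 at 0.0158, for Cltc Dot1l at 0.0186, for Cltb Imp3 at 0.0196 and for Amph Atg16l2 at 0.0224. Clta was nearest to Clk2 at 0.0240, Dnm1 to Shq1 at 0.0420 and Ap2a1 to Mink1 at 0.0593. Among the 10 themselves, Cltc and Snap91 (0.0692) and Amph and Synj1 (0.0703) were closest to each other. The light chain genes Clta and Cltb were each nearest to the other (0.153). Ap2a1 was the farthest from the rest, at 0.366 from Ap2b1. These distances rest on 4 group means and are a description only.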

How the data were processed

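RNA was measured in 12 libraries of mouse cortex. Per the labels' protocols, cDNA was made with the Nugen V2 kit. The submitters' processing notes name STAR, Bowtie2, HTSeq and edgeR, with no version, build, annotation or strand setting. The authors deposited raw counts per gene, with 5 summary lines that held 19.3% to 58.3% of a library's reads and are not used. The authors' deposited tables give log2 fold changes, log2 CPM, p-values with false discovery rates, and likelihood ratio scores (not used).

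Symbols and coordinates came from GENCODE M21. 1 model of all 12 libraries was made with edgeR 4.0.16 under R 4.3.3, with group means, TMM scaling, the default expression filter and the robust quasi-likelihood test. P-values were adjusted over all 13404 genes, with calls under 0.05. CPM use the same scaling, and ratios of genes add 0.5 CPM. The fit was tested on simulated counts of TRAP against WCH, with the same spread for all genes. It recovered 23.8% of 1.5-fold, 87.7% of 2-fold and 96.9% of 4-fold changes, so most 1.5-fold changes were missed there. Only 200 genes were changed in that simulation, far fewer than were called in the data for this contrast. The rates therefore do not give the share of true changes found in the contrasts above. DESeq2 1.42.0 was an alternative. Transcripts of the 10 genes were searched with BLAST for copies of at least 95% identity over 100 bases; only the overlap of Ap2a1 with Fuz was found. Other alternatives were RLE factors, total counts, TMM without mitochondrial genes, no filter, the replicate number as a block, only 2 groups fitted, and each library left out. The 10 genes and all lists were chosen with earlier results of these data known.

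All 10 genes are named; of the 49 further genes, up to 4 called ones with the largest change in each direction and contrast, and the relatives of the 10. Replicates of a group differed beyond counting error (chi-square per gene 9.63 to 321). Same-numbered libraries deviated together in SynapTRAP and SNF (correlation across genes 0.229, 0.334 and 0.403), which comes from the data and not from the labels. Such correlations were weaker for SynapTRAP and TRAP (0.109, 0.141 and 0.0914), where every differently numbered pair was negative. For SNF and WCH they were 0.179, 0.0686 and 0.0679, and for TRAP and WCH 0.0264, 0.0577 and −0.0291.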

Additional observations from a re-analysis of the deposited data

Results flagged for a closer look

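No gene of the 10 passed the test of a difference between both immunoprecipitation effects. Among the 49 further genes of the pathway, 2 did. Ap2s1, for the sigma subunit of AP-2, was 1.85 higher on the log2 scale in TRAP than in WCH and 0.30 higher in SynapTRAP than in SNF, a difference of −1.55 (SE 0.35, edgeR adjusted p = 0.0387). It was at 88.2 to 158 CPM in TRAP, 32.9 to 38.1 in WCH, 22.4 to 35.4 in SNF and 26.5 to 42.3 in SynapTRAP. The call was lost without any WCH replicate (−1.70, −1.49 and −1.60 for 1, 2 and 3), TRAP replicate 2 (−1.51) or any SNF replicate (−1.68, −1.34 and −1.59), and with total counts as scaling (−0.14). Fcho2, for a protein that starts clathrin pits, was −1.66 in TRAP against WCH and 0.11 in SynapTRAP against SNF, a difference of 1.77 (SE 0.41, edgeR adjusted p = 0.0407). Its call was lost with RLE factors (1.65), with TMM factors from genes outside the mitochondrial genome (1.68) and without WCH replicate 1, 2 or 3, TRAP replicate 2 or 3, SNF replicate 1 or 2 or SynapTRAP replicate 1, at 1.46 to 1.85. Fcho2 had 27.9 to 35.6 CPM in WCH, 7.71 to 14.95 in TRAP, 13.8 to 34.1 in SNF and 25.3 to 29.4 in SynapTRAP.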

How the results depend on the processing

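Of the counts among the 10 genes, the 6 lower in SynapTRAP against TRAP were 5 or 6 without any 1 library and 10 with total counts as scaling. The 4 higher in TRAP against WCH were 2 to 4 without 1 library. The 7 lower in SNF against WCH were 2 with RLE factors, 3 with TMM from genes outside the mitochondrial genome, 4 without the expression filter, 3 in DESeq2 and 1 to 3 without 1 library. The 1 higher in SynapTRAP against SNF was 0 with RLE factors, 0 with 2 groups fitted, 10 with total counts and 0 to 2 without 1 library. For the difference of effects, total counts gave 6 higher. With the replicate block, the counts were 4 higher in TRAP against WCH, 7 lower in SNF against WCH, 1 higher in SynapTRAP against SNF and 6 lower in SynapTRAP against TRAP, so it changed none of them.

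Total counts as scaling turned the sign of Ap2a1 (−2.36), Ston2 (−0.46), Dnm2 (−2.25), Ap2a2 (−2.33) and Ap1b1 (−2.25) in SNF against WCH, Cltb (1.92) and Sh3gl2 (1.66) in SynapTRAP against SNF, Dnm2 (−0.13) and Ap1b1 (−0.82) in SynapTRAP against TRAP, and Ap2a1 (1.33) and Synj1 (1.46) in the difference of effects. With it the all-gene median went from −0.25 to −2.60, 0.03 to 1.98, −0.02 to −0.9998 and 0.07 to 1.46 in these contrasts, in the same order.

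Counts over all genes moved by over 1.5 times as follows. For TRAP against WCH (1488 higher and 1459 lower), total counts gave 2862 and 231, and 1 library left out gave as few as 652 and 832. For SNF against WCH (2757 and 2209), RLE factors gave 1415 lower, total counts 11 and 11441, and 1 library left out as few as 970 lower. For SynapTRAP against SNF (307 and 240), total counts gave 12171 and 6, no filter 547 higher, the replicate block 393 lower, DESeq2 634 lower, 2 groups fitted 140 and 121, RLE factors 366 lower and 185 higher, and 1 library left out 19 to 499 and 20 to 453. For SynapTRAP against TRAP, total counts gave 594 and 6403, and 2 groups fitted 1458 lower, against 2899 and 2432. For the difference (68 and 48), RLE factors gave 38 and 75, total counts 6329 and 0, TMM outside the mitochondrial genome 42 higher, no filter 310 and 202, the replicate block 217 and 149, DESeq2 174 and 401, and 1 library left out 0 to 241 and 0 to 298. A gene of the 10 had 50 to 846 counts in an SNF library.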
